A study of Mus musculus with 15 samples.

Results

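Tumour cells sorted from the skin of control mice with basal cell carcinoma were profiled in 4 libraries of polyA RNA. These are called control 1 to control 4 here, out of 15 libraries in the series. They were chosen by their treatment label, control, and the 8 libraries from 6 days and 3 from 14 days of vismodegib, an inhibitor of the Hedgehog transducer Smoothened, enter no value below. Every mouse in the series, controls included, carried K14Cre-ER, an inducible Cre recombinase driven by the keratin 14 promoter. Each also carried the conditional alleles Ptch1fl/fl and p53fl/fl, the latter of the p53 gene Trp53, and Lgr5GFP, a green fluorescent reporter at Lgr5. The labels give neither the sort gate nor the age of the mice, and they do not say that the 4 libraries came from separate animals, so the spread between them may be partly technical. With 1 group of 4 libraries no test was made, and each level is given per library, as 4 values for controls 1 to 4 in that order, with its mean ± SD.

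Basal cell carcinoma is a tumour of keratinocytes, the keratin-producing cells of the epidermis and hair follicle, and it depends on Hedgehog signalling. The receptor Patched (Ptch1) holds Smoothened inactive until a Hedgehog ligand binds it. When Ptch1 is lost, Smoothened signals without a ligand, and the GLI transcription factors switch on targets that include Gli1 and Ptch1 themselves. Keratins are the intermediate filament proteins of epithelia. A type I keratin pairs with a type II keratin, and the pair in use marks the cell's layer.

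The libraries held between 29108107 and 95464249 counts, with control 4 the most deeply sequenced. Across expressed genes, Pearson's r of log2(nRPKM + 1) was 0.930 to 0.961 among controls 1, 2 and 3 and 0.792 to 0.827 between control 4 and each of them, genes not being independent replicates. Here nRPKM is the deposited count per kilobase, scaled by a size factor for each library. The submitters' sample identifier of control 4 lies in another number range from the other 3, which the labels do not call a batch. Thinned to the lowest total, the libraries had 19530 to 20055 genes with a count. The difference of control 4 from the mean of the others had a median of -0.23 on the log2 scale in the fifth of genes lowest in GC content and 0.21 in the fifth with the highest. Of 13357 genes with a mean of at least 1 nRPKM, control 4 was at least 2-fold above each other library in 1321 (9.89%) and below in 535 (4.01%). Scaled over library totals instead, which moves control 4 by -0.15 on the log2 scale, it was above in 1023 and below in 843 of 13307. Where a value below rests on control 4 or control 1, GC content and the make-up of the sorted cells were not tested as its source.

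At least 1 nRPKM in each of the 4 libraries, the level called expressed here, was reached by 11557 of 36528 listed genes (31.6%). Counts of expressed members of a list, below, are to be read beside that share. By mean over the 4 libraries the most abundant transcript was Krt17, followed by Apoe, the apolipoprotein E gene, at 7063, 2133, 2988 and 3057 nRPKM in controls 1 to 4. Perp, which encodes a desmosome protein, stood at 1730.2, 1409, 1141 and 1255. The nuclear long noncoding RNA Malat1 varied more, at 519, 746, 1475 and 111, lowest in control 4. Among genes with a mean of at least 10 nRPKM, the most even was Ncaph2, a condensin II subunit, at 41.3, 39.8, 39.8 and 40.1. The most uneven was Defb6, a beta-defensin gene, at 1024, 8.16, 79.8 and 17.2, with control 1 far above the rest. As these are bulk libraries, fewer cells of a type and less RNA per cell cannot be told apart.

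The tumour cells expressed 15 of 54 keratin genes, where 31.6% of all listed genes were expressed. Of these keratins 5, Krt17, Krt5, Krt15, Krt14 and Krt79, took 96.1 to 98.3% of the keratin counts in every library. Krt17, a type I keratin of the hair follicle that also rises in wounded skin, was at 7839.8, 5000.0, 5123 and 2539 nRPKM in controls 1 to 4 (5125 ± 2166; SD, n = 4), the highest mean of all genes. Krt5, the type II keratin of the basal layer, was at 3151, 2019, 1792 and 3495 (2614 ± 836), above Krt17 in control 4 and below it in the other libraries. Krt15, a type I keratin of the hair follicle bulge, was the most even of the keratins with a mean of at least 10 nRPKM, at 1936, 1920.4, 1568 and 2219 (1911 ± 266). Krt14, the usual partner of Krt5 and the source of the promoter that drives Cre in these mice, was at 3328, 1097, 1471 and 900.3 (1699 ± 1111). The ratio of Krt5 to Krt14 therefore ran from 0.947 in control 1 to 3.88 in control 4.

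The order of the 5 leading keratins was Krt17, Krt5, Krt15, Krt14 and Krt79 in controls 2 and 3. In control 4, Krt5 and Krt17 changed places, and in control 1 the order was Krt17, Krt14, Krt5, Krt79 and Krt15. Of the 10 neighbouring pairs among the 11 highest keratin means, the ranges over libraries overlapped in all but Krt79 and Krt10. Krt79, a type II keratin of the hair follicle's infundibulum and sebaceous duct, was at 2579.9, 214, 366 and 525, and its mean of 921 fell to 368 without control 1. The gap below the leading 5 was wide: Krt10, a type I keratin of the suprabasal layers, was at 158, 57.9, 62.03 and 57.5, with the 3 lower libraries close together.

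**Figure D1:**
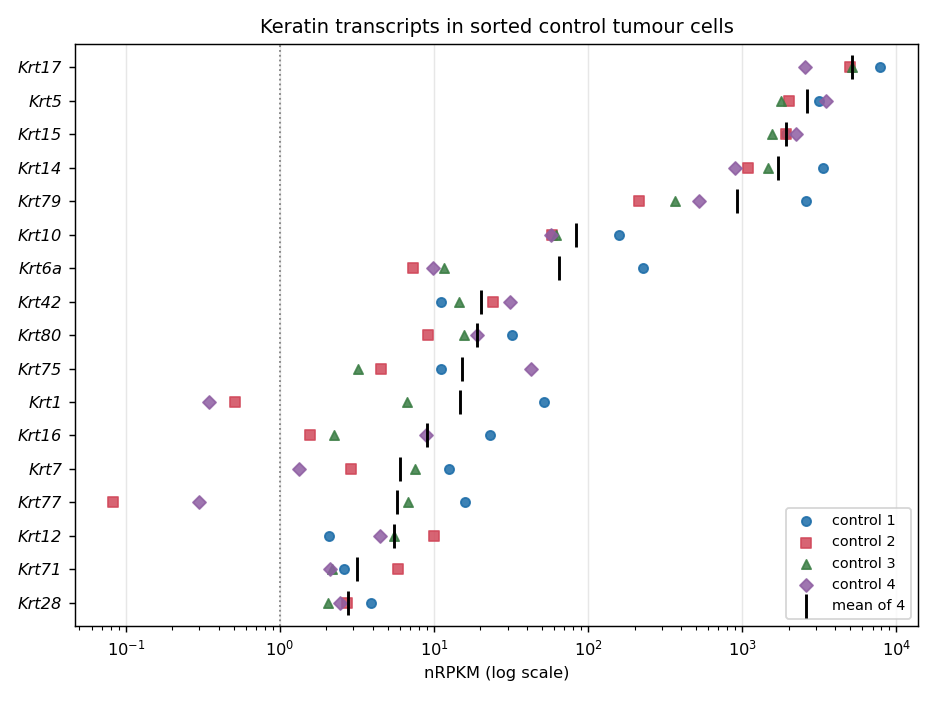
Keratin transcripts in the 4 control libraries: each row is a keratin gene, the highest means on top, the horizontal axis gives nRPKM on a log scale, symbols are libraries, the bar is the mean of 4 and the dotted line marks 1 nRPKM. Krt17, Krt5, Krt15, Krt14 and Krt79 lie apart at the top, and control 1 stands to the right of the others for Krt79, Krt10, Krt6a and Krt1.

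By role, 4 of 6 type I and 4 of 5 type II keratins of the basal layer and follicle were expressed. The counts were 2 of 11 suprabasal, 1 of 4 simple epithelial, 2 of 8 inner root sheath and 1 of 17 hair and nail keratins. Over all listed genes the share was 31.6%. Krt6a, a type II keratin of the companion layer and of wounded epidermis, was at 228, 7.27, 11.7 and 9.88, so its mean of 64.2 rested on control 1 and was 9.61 without it. Krt1, the suprabasal partner of Krt10, was at 51.5, 0.508, 6.63 and 0.348 and did not reach 1 nRPKM in controls 2 and 4. Krt75, a companion layer keratin, was at 11.1, 4.498, 3.23 and 42.3, highest in control 4. The inner root sheath keratins were low in every library, with Krt71 at 2.600, 5.87, 2.17 and 2.104. Krt28, of the same sheath, was at 3.87, 2.73, 2.05 and 2.46. The simple epithelial pair that marks Merkel cells in skin was nearly lacking. Its type II member Krt8 was at 0.116, 0.041, 0.352 and 0.1802. Its type I member Krt18 was at 0.701, 0.041, 0 and 1.61. Krt7, another simple epithelial keratin, was at 12.5, 2.89, 7.54 and 1.33.

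Keratins were the most uneven of the 4 gene classes. Of the 22 keratins with a mean of at least 1 nRPKM, 9 stood at least 2-fold above each other library in control 1, against 2.22% of the 13357 genes with such a mean, and 1 did so in control 4, against 9.89%. Here 2-fold means 1 unit of log2(nRPKM + 1). The mean includes the library that stands high, for all genes as for keratins. Of the 9, Krt24, at 6.86, 0, 0.518 and 0, reached a mean of 1 nRPKM through control 1 alone. So did Krt6b, at 4.68, 0.133, 0.249 and 0.205. Keratins together took 4.21, 2.31, 2.34 and 2.03% of the counts of controls 1 to 4. Control 1 was at least 2-fold above in 9 of 12 measured genes of a suprabasal and cornified layer list. It was so in 5 of 11 of an upper follicle list. The lists overlap the keratin class, with Krt10 in the first and Krt79 in the second, both among the 9 keratins. Krtdap, a gene of differentiating keratinocytes, was at 1927, 90.2, 174 and 37.4. Ly6a, which encodes a surface protein of upper follicle cells, was at 78.6, 0.273, 3.12 and 0.401. The part of suprabasal or upper follicle cells in the keratin values of control 1 was not tested.

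All 54 keratin genes lie in 2 clusters of GRCm38, 27 on chromosome 11 between 99232761 and 100269951 and 27 on chromosome 15 between 101348315 and 102032026. Of these, 8 and 7 were expressed. Krt17 (chr11:100256215-100261029) and Krt14 (chr11:100203162-100207510) are near neighbours, as are Krt5 (chr15:101707069-101712905) and Krt6a (chr15:101689928-101694305). Sequence shared with other genes matters for the counts of some of them. Krt6a and Krt6b share 57.5 and 50.1% of their 50-base transcript windows with other genes. Krt12 shares 42.04%, the most with A830036E02Rik, and Krt16 37.6%, the most with Gm11597. For Krt14 the share is 14.4%, for Krt5 12.2%, for Krt17 3.99% and for Krt15 0.67%. The values of Krt6a, Krt6b, Krt12 and Krt16 are therefore uncertain, since per the file headers only uniquely aligned reads were counted. Whether a shared window is a copy elsewhere in the genome or lies in an overlapping gene was not tested.

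The 100 bases before the start of 7 genes are shown because 4 expressed keratins held fewer CG dinucleotides there than Vdr and 2 Hedgehog pathway genes expressed in the same cells. They are RefSeq sequences of build GRCm38.p6, 5′ to 3′ on the gene's strand, with capitals marking the CG sites. Shown are genes whose listed start is the outer end of the RefSeq gene. Krt5, Krt75, Krt79, Krt28 and Vdr lie on the minus strand and Gli3 and Smo on the plus strand. Krt5 is from chr15:101712906-101713005, Krt75 from chr15:101573905-101574004, Krt79 from chr15:101940325-101940424 and Krt28 from chr11:99374904-99375003. Vdr is from chr15:97908297-97908396, Gli3 from chr13:15463623-15463722 and Smo from chr6:29735397-29735496.
Krt5: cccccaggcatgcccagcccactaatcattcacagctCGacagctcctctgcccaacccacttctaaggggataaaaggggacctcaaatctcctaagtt
Krt75: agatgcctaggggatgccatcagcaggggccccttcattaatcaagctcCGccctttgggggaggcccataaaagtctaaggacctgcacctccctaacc
Krt79: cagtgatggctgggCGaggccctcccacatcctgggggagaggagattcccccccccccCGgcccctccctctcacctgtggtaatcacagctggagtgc
Krt28: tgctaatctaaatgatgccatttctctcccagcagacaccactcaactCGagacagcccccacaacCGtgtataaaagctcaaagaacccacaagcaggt
Vdr: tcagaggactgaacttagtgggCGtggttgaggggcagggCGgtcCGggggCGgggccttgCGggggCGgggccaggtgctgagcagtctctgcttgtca
Gli3: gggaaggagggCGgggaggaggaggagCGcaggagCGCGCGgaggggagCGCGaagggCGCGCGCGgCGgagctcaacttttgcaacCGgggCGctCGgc
Smo: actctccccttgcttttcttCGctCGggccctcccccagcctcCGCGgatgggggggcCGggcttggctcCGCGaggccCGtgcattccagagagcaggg

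In these stretches Krt5 and Krt75 hold 1 CG site each and Krt79 and Krt28 hold 2 each, against 6 for Vdr, 15 for Gli3 and 8 for Smo. Over 250 bases before the start, the 10 of 15 expressed keratins with an entry had a median of 3.5 CG sites. Krt7 was the exception, with 16 against 11 for Vdr and 15 for Smo, and the other 9 had 2 to 6. The medians were 18.5 for expressed transcription factors, 16.25 for receptors and 14 for matrix genes. All 8691 expressed genes with an entry had a median of 17, and the whole table of 27025 genes a median of 6. The letters TATAAA occurred between 50 and 6 bases before the start, on the gene's strand, in 4 of the 10 keratins (Krt10, Krt12, Krt28 and Krt71), in 1.48% of expressed genes and in 2.98% of all genes. Of the 100 expressed genes with the highest means, keratins included, 69 had an entry. Their median was 13 CG sites, and the letters TATAAA occurred in 10.1%. On the other strand they occurred in none of the 10 keratins and in 1.21% of all genes. The listed starts of Krt14, Krt10 and Krt12 lie inside the gene. Of the 7 keratins whose start is the outer end of the gene, the median was 3 CG sites, against 16 for the 4789 such expressed genes, and 2 (Krt28 and Krt71) hold TATAAA, against 1.57%. Krt17, Krt15, Gli1 and Lgr5 have no entry in the table.

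Transcription factors were led by genes of the hair follicle and of Hedgehog signalling. Of 532 members, 270 were expressed, and their summed share of counts was 3.29 ± 0.35%. Vdr, the vitamin D receptor, a nuclear receptor needed for the hair cycle, had the highest mean, at 241, 323, 255 and 369 nRPKM (297 ± 59.8). Lhx2, a LIM homeobox factor of follicle progenitors, was at 133, 233, 162 and 355 (221 ± 99.00). Sox9, a factor of follicle stem cells, was at 190.2, 224, 203 and 121 (185 ± 44.4), lowest in control 4. Trp63, the p63 gene that stratified epithelia need, was at 175, 121, 146 and 105 (137 ± 30.3).

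Of the Hedgehog effectors, Gli1, Gli2 and Gli3 were all expressed. Gli1, an activator that is itself a pathway target, was at 56.00, 112, 98.03 and 421 (172 ± 168), with control 4 apart from the rest and control 1 lowest. The mean without control 4 was 88.7. Gli2, the main activator acting downstream of Smoothened, was at 10.3, 17.03, 17.4 and 57.4. Gli3, which acts mostly as a repressor, was at 3.001, 4.82, 6.29 and 9.42, so all 3 were lowest in control 1 and highest in control 4. Gli1 exceeded Gli2 by 5.42 to 7.33 times in every library, so the ratio was steadier than either level. No Zic gene of the same role group reached 1 nRPKM in every library.

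Among the other factor families, Irx2 led the homeobox genes at 113, 123.4, 147 and 304. Tbx1, a bulge factor, was the 1 of 22 T-box and paired genes expressed, at 74.7, 118, 112 and 111. Cebpb, a factor of differentiating keratinocytes, led the leucine zipper group at 299.8, 109.5, 143 and 38.2, highest in control 1. The immediate early factor Egr1 was at 142, 178, 118 and 149. Id4, an inhibitor of helix-loop-helix factors, was at 70.3, 142, 157 and 37.5. Of 7 factors tied to epithelial to mesenchymal transition, Snai2 alone was expressed in every library, at 88.2, 78.3, 67.5 and 47.8, while Snai1, Twist1, Zeb1 and Zeb2 had means between 0.03 and 0.21. Sox13, a SOX family factor, was at 90.3, 186, 98.8 and 219. Ets2, the leading ETS factor, was at 64.8, 90.9, 78.6 and 200.3, highest in control 4. Trp53 was at 39.9, 47.6, 44.8 and 62.2. The counts sum each gene over its whole length, so the Trp53 and Ptch1 values do not check the deletion of the conditional exons.

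Neighbouring factors in the order of means were not apart: the ranges of all 10 pairs among the 11 highest overlapped, and only Vdr over Lhx2 kept its order in all 4 libraries. The most uneven factors with a mean of at least 10 nRPKM were Sox7, Zbtb16, Barx2 and Irx1. Each reached that mean through 1 library, since the mean of Sox7 was 1.79 without control 1. Without control 4 the means were 8.57 for Zbtb16, 6.25 for Barx2 and 7.97 for Irx1. Sox7 was at 38.9, 0.137, 4.49 and 0.753, high in control 1. Zbtb16, a zinc finger repressor, was at 2.82, 4.83, 18.1 and 68.7. The homeobox gene Barx2 was at 5.87, 5.11, 7.76 and 63.9, and like Zbtb16 and Irx1 it was highest in control 4. Irx1 was at 6.78, 8.93, 8.19 and 71.8. The most even were Cebpz, Ctcf and Sp3, the last at 33.3, 36.9, 36.8 and 32.7. In control 4, 64 of 310 factors with a mean of at least 1 nRPKM stood at least 2-fold above each other library, against 9.89% of all genes, and 14 did so in control 1, against 2.22%.

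**Figure D2:**
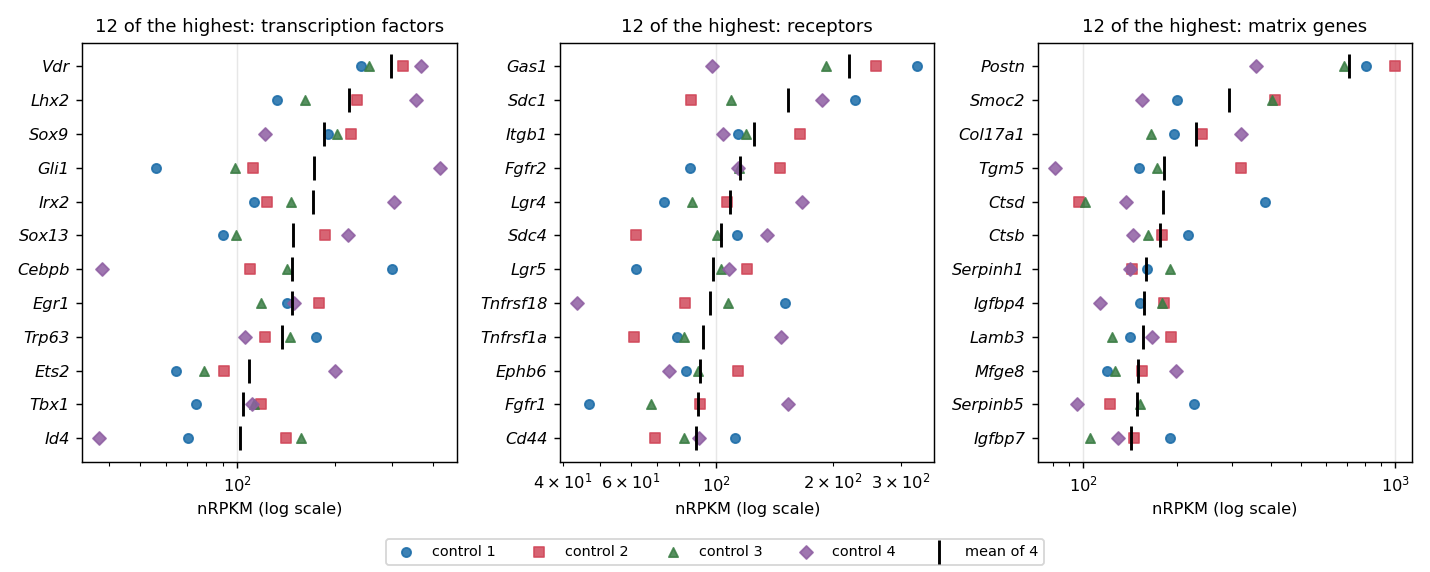
Transcription factors, receptors and matrix genes, 12 each of those with the highest mean nRPKM: each row is a gene, the horizontal axes give nRPKM on log scales that differ between panels, symbols are the 4 control libraries and bars are their means. Gli1 and Irx2 are highest in control 4, Cebpb, Gas1 and Ctsd in control 1, and ranges of neighbouring genes overlap throughout.

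Receptors were led by the Hedgehog coreceptor Gas1, the syndecan Sdc1 and the integrin chain Itgb1. Of 437 members 176 were expressed, with a summed share of 2.75 ± 0.46% of counts. Gas1, a cell surface protein that binds Hedgehog ligands, had the highest mean, at 331, 259, 192 and 97.6 nRPKM (220.1 ± 99.4), lowest in control 4. Ptch1 was at 30.2, 71.4, 52.6 and 178 (83.1 ± 65.6). Ptch1 is a feedback target of the pathway, highest in control 4 and lowest in control 1. Smo, which encodes Smoothened, the target of vismodegib, was even, at 44.4, 58.4, 44.3 and 64.02 (52.8 ± 9.997). The decoy receptor gene Hhip was at 26.9, 122, 57.9 and 26.8, highest in control 2. The coreceptor gene Boc was at 27.04, 35.6, 45.4 and 48.5. Cdon did not reach 1 nRPKM in controls 1, 2 and 3, and Lrp2 had 3 counts in control 2 and none elsewhere.

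Hedgehog targets did not share 1 order across the libraries. Of a list of 16 such genes, 13 were expressed, and control 1 had a median of -0.49 on the log2(nRPKM + 1) scale from the mean of the 4 libraries, against 0.15 for control 4. Gli1, Gli2, Ptch1, Cdk6 and the cyclin gene Ccnd1 were highest in control 4. Hhip, the proto-oncogene Mycn and Bcl2, which encodes an inhibitor of apoptosis, were not, with Mycn at 36.95, 97.4, 41.6 and 25.7. Sostdc1, a secreted BMP and Wnt modulator of the hair germ, went the other way, at 580.2, 150.5, 127 and 45.4.

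Of the 27 Wnt and R-spondin receptor genes 22 were expressed, the largest share of the receptor groups. Lgr5, the stem cell marker at which the mice carry a reporter, was at 61.98, 119.7, 103 and 108 (98.1 ± 25.1), lower in control 1 than in the others, which lay close together. Its relative Lgr4, also an R-spondin receptor, was at 73.1, 106, 86.5 and 166. The third, Lgr6, was at 31.3, 90.7, 74.2 and 65.4, so all 3 were above 10 nRPKM in every library. Lgr5 exceeded Lgr6 by 1.32 to 1.98 times in every library. The Frizzled genes were led by Fzd7, at 62.9, 93.1, 68.8 and 87.1. The Wnt coreceptor Lrp5 was the most uneven receptor with a mean of at least 10 nRPKM, at 2.56, 3.81, 3.26 and 47.6, with control 4 apart. Without control 4 its mean was 3.21, under that level. Its partner Lrp6 was at 7.81, 9.17, 9.48 and 24.4. Of 16 Wnt readout genes 9 were expressed. Axin2, a common readout, was at 1.25, 0.358, 0.957 and 5.04. Lef1, a nuclear effector, was at 1.53, 4.03, 1.78 and 1.66.

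Among receptor tyrosine kinases 24 of 52 were expressed, led by the fibroblast growth factor receptor Fgfr2 at 85.4, 146, 115 and 114 (115 ± 24.8). Its relative Fgfr1 was at 46.8, 90.7, 67.6 and 154. Fgfr3 was at 26.5, 48.3, 42.3 and 150.3, and both were highest in control 4. The epidermal growth factor receptor gene Egfr was at 18.7, 21.2, 18.8 and 35.2. Itgb1, which encodes the integrin beta chain shared by most matrix receptors of keratinocytes, was at 113, 165, 119 and 104. Of the hemidesmosome pair, Itgb4 was at 52.5, 68.4, 44.8 and 103. Its partner Itga6 was at 52.8, 39.6, 40.98 and 45.6, the more even of the pair. Syndecan genes, for heparan sulfate coreceptors, were led by Sdc1, at 228, 86.1, 109 and 187. Sdc4 was at 113, 61.8, 100.3 and 135, and both were lowest in control 2. Tnfrsf18 led the tumour necrosis factor receptors, at 151, 82.9, 107 and 43.5. Tnfrsf1a, a receptor of tumour necrosis factor itself, was at 79.2, 61.2, 82.2 and 147.

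Notch1, a receptor that drives keratinocyte differentiation, was at 12.1, 12.4, 12.4 and 55.8, level in 3 libraries and higher in control 4. The Notch target Hes1 was at 75.4, 70.9, 82.3 and 52.4, lowest in control 4. Of the 10 Notch targets listed, 7 were expressed and 8 were highest in control 4, against 8393 of the 23606 genes with a count. Of the 7 with a mean of at least 1 nRPKM, 2 stood at least 2-fold above each other library there, against 9.89% of all genes. Nrarp, a feedback target, was at 56.5, 57.7, 50.3 and 78.2. Of 16 BMP and TGF-beta receptors 12 were expressed, with unlike spreads. Bmpr1a, a type I BMP receptor and the most even receptor with a mean of at least 10 nRPKM, was at 33.2, 32.4, 30.8 and 34.5. The coreceptor Rgma was at 11.9, 13.7, 12.1 and 102. Acvr1b, an activin receptor, was at 5.77, 6.43, 7.55 and 64.2, so that control 4 alone stood high for both. Cntfr, a ciliary neurotrophic factor receptor subunit, was at 32.05, 43.4, 22.1 and 214, again highest in control 4. Ryk, an atypical Wnt receptor, was among the most even, at 78.3, 80.99, 70.9 and 74.9. Edar, the ectodysplasin receptor of hair placodes, was low, at 1.06, 5.58, 2.93 and 3.76. Of 154 G protein-coupled receptors 31 were expressed, led by Adgra3 at 90.03, 104, 58.02 and 78.9. Over all receptors, 36 of 209 with a mean of at least 1 nRPKM stood at least 2-fold above each other library in control 4 and 8 did in control 1, against the 9.89 and 2.22% of all genes.

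Matrix genes were led by Postn, and basement membrane genes were expressed where those of dermal collagen fibres were not. Of 309 members 121 were expressed, with a summed share of 2.75 ± 0.37% of counts. Postn, the matricellular protein periostin, was at 804, 998, 685 and 358 nRPKM (711 ± 268), above each other matrix gene in every library. Smoc2, a secreted calcium-binding glycoprotein, was at 200.3, 412, 402 and 155 (292 ± 133.9), with controls 2 and 3 above controls 1 and 4. Col17a1, the transmembrane collagen of hemidesmosomes, led 19 of 44 collagens that were expressed, at 196, 239.6, 165 and 321 (230.4 ± 67.9).

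The basement membrane collagen Col4a1 was at 44.5, 62.4, 57.3 and 93.3. Its chain partner Col4a2 was at 25.8, 39.9, 32.2 and 90.4. Col7a1, which makes anchoring fibrils, was at 19.5, 29.8, 31.2 and 64.8. By contrast the fibre collagen genes of fibroblasts were below 2 nRPKM in every library, with Col1a1 at 1.16, 0.676, 0.242 and 1.599. Col3a1 was at 1.12, 0.165, 0.253 and 0. Of the cartilage collagens, Col2a1 was at 12.9, 89.1, 28.7 and 20.6. Col9a3 was at 18.97, 51.1, 41.5 and 13.4, and both were highest in control 2. Of 28 laminin and basement membrane genes 15 were expressed. Of the chains of laminin 332, the main laminin below the epidermis, Lama3 was at 18.4, 30.9, 23.5 and 39.9. Lamb3 was at 142, 191, 123.6 and 166, above Lama3 in every library. The perlecan gene Hspg2 was at 6.84, 10.9, 8.85 and 66.8. The agrin gene Agrn was at 44.04, 81.4, 70.3 and 189, and both were highest in control 4.

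Of 23 genes for small and large proteoglycans, link proteins and hyaluronan synthases, a group without perlecan, agrin and the testicans, Bgn, for biglycan, was the 1 expressed, at 38.5, 41.8, 50.1 and 148. The dermal proteoglycan Dcn was at 0.502, 0.394, 1.84 and 0.119. Tgm5, a crosslinking transglutaminase of epidermis, was at 151, 319.7, 173 and 81.1. Serpinh1, a collagen chaperone, was at 161, 144, 189 and 142. The lysosomal protease Ctsd was at 383, 97.05, 102 and 137, and its level in control 1 was 3.94 times the lowest. Ctsb, another cathepsin, was at 217, 179, 161 and 145. Fibronectin, Fn1, was low, at 1.05, 1.23, 3.92 and 2.81. Tenascin C, Tnc, was at 32.4, 11.7, 30.6 and 20.9.

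Matrix genes too were not apart from their neighbours in the order of means, since all 10 pairs of ranges overlapped. Spock2, a testican proteoglycan, had the largest spread among those with a mean of at least 10 nRPKM, at 1.42, 2.41, 2.94 and 74.5, and its mean of 20.3 fell to 2.26 without control 4. Htra1, a serine protease, was at 50.3, 7.905, 5.29 and 26.9. Igfbp6, an insulin-like growth factor binding protein, was at 7.87, 9.32, 7.67 and 57.7, with a mean of 8.29 without control 4. The smallest spreads were those of Col4a5, Adam17 and Fbln1, with Fbln1, for fibulin 1, at 33.5, 45.2, 35.1 and 39.1. Control 4 stood at least 2-fold above in 20 of 153 matrix genes with a mean of at least 1 nRPKM and control 1 in 8, against the 9.89 and 2.22% of all genes.

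Over all expressed genes, the median SD of log2(nRPKM + 1) between the libraries was 0.36, and the highest library exceeded the lowest by 1.88 times at the median. The ratio was 2 or more for 44.5% of expressed genes and 10 or more for 188. The median SD was 0.71 for the 15 expressed keratins, 0.45 for transcription factors, 0.47 for receptors and 0.47 for matrix genes. Without control 4 the median of all expressed genes was 0.23 and that of keratins 0.80, and without control 1 the keratin median was 0.52. The biological coefficient of variation that edgeR estimated from the counts was 0.486 over 14589 genes and 0.357 without control 4. A floor of 3 counts, the most that a count of 0 allows, equals at most 0.103 CPM.

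**Figure D3:**
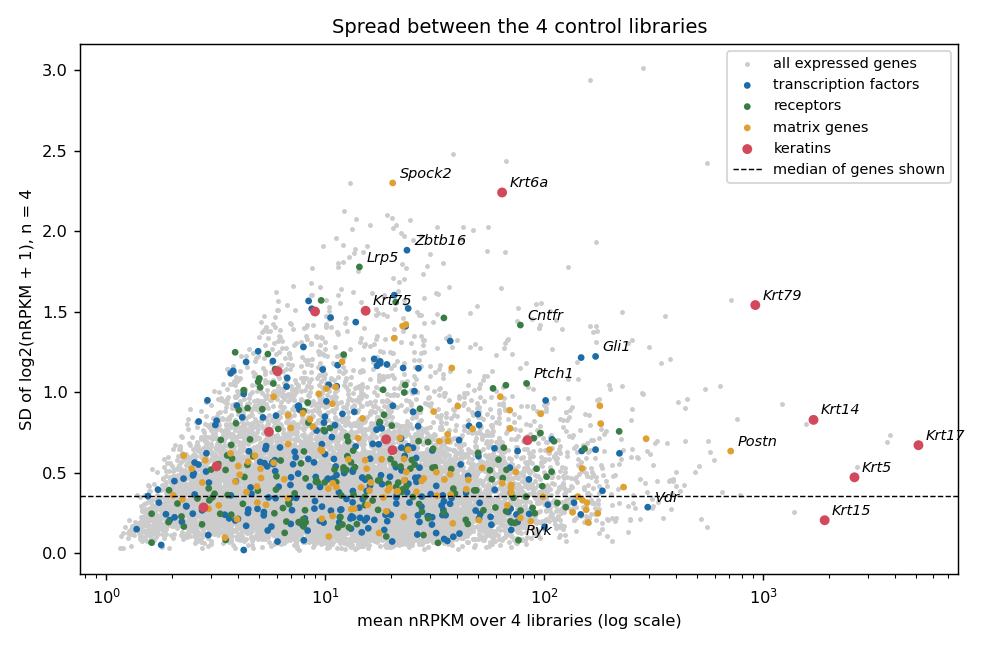
Spread between the 4 control libraries against level: each point is an expressed gene, the horizontal axis gives the mean nRPKM on a log scale, the vertical axis the SD of log2(nRPKM + 1), colours mark the 4 classes and the dashed line is the median of 0.36. Krt15 lies below the median at a high level, and Krt6a, Spock2 and Zbtb16 lie far above it.

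Most genes of the hair follicle bulge, basal epidermis and upper follicle lists were expressed. Of 16 bulge genes 14 were expressed, of 15 basal epidermis genes 14, and of 11 upper follicle genes 10. The counts were 10 of 18 hair germ and placode genes, 7 of 19 suprabasal and cornified layer genes and 6 of 15 sebocyte genes. Over all listed genes the share was 31.6%, so the last 2 lists were not below it. The bulge list took 1.13, 1.39, 1.12 and 0.945% of the counts of controls 1 to 4. Of its factors, Foxc1 was at 36.9, 45.1, 39.6 and 42.5. Nfatc1, which keeps bulge cells quiescent, was at 55.2, 42.1, 48.1 and 18.00. The suprabasal list took 0.2999, 0.061, 0.069 and 0.062%, so control 1 stood apart. Of the sebocyte genes, the lipid droplet gene Plin2 was at 58.5, 36.5, 33.9 and 26.2. Pparg, a regulator of sebocyte differentiation, was at 2.95, 0, 0.408 and 0.131.

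Most cell division genes were expressed in every library, and both lists were mostly lowest in control 4. Of 21 mitosis genes 19 were expressed, 19 were lowest in control 4 and 20 were highest in control 3. Of 21 DNA replication genes 18 were expressed and 19 were lowest in control 4. Of the 23606 genes with a count in any library, 6583 were lowest in control 4 and 4586 highest in control 3. Ties at 0 went to the library with the lowest number. Top2a, a topoisomerase of dividing cells, was at 12.2, 16.4, 33.04 and 8.73, highest in control 3. The replication helicase subunit Mcm6 was at 70.3, 94.8, 75.3 and 28.3. Control 4 stood at least 2-fold below each other library in 13 of the 21 replication genes, against 4.01% of the 13357 genes with a mean of at least 1 nRPKM, and in 4 of the 21 mitosis genes. Control 3 stood at least 2-fold above in 3 of the mitosis genes, against 0.427%. Mcm7, another helicase subunit, was level over the libraries, at 19.2, 22.4, 22.3 and 22.3.

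**Figure D4:**
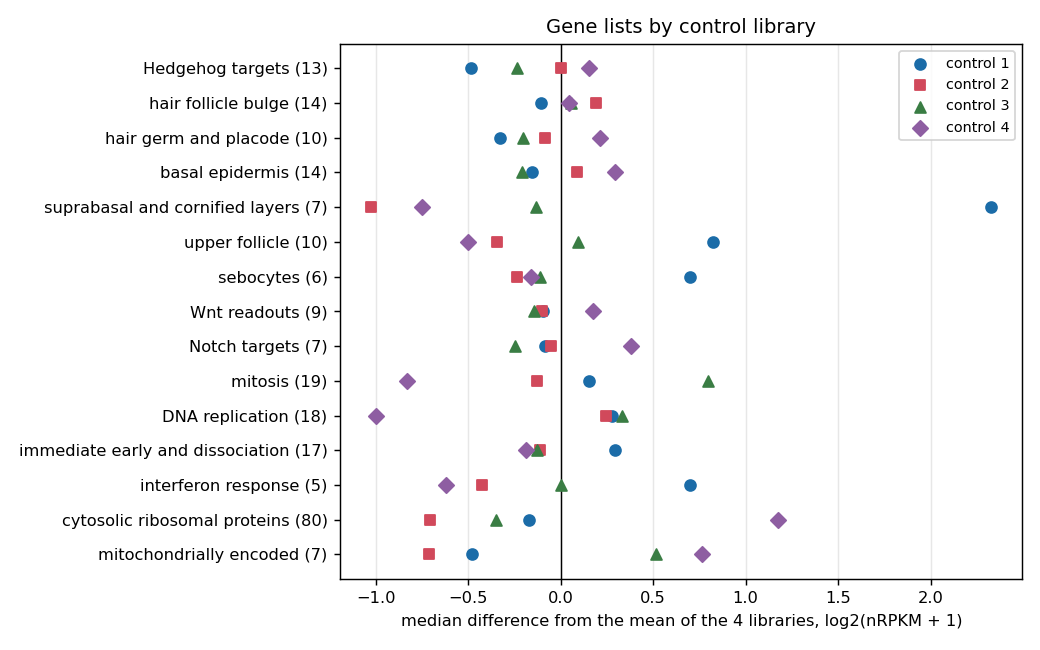
Median difference of each gene list from the mean of the 4 control libraries, over its expressed members (their number in brackets): the horizontal axis is on the log2(nRPKM + 1) scale and symbols are libraries. Control 1 lies furthest to the right for the suprabasal list, and control 4 lies lowest for DNA replication and highest for ribosomal protein genes.

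Marker genes of other cells were low or shared with the tumour cells. Of 113 markers of other cell types 15 were expressed in every library, among them Epcam and Mfge8, which epithelial cells also express. Epcam was at 313, 293, 228 and 181. Mfge8 was at 119, 154, 126 and 199. None of 10 fibroblast, 10 endothelial, 10 T and natural killer, or 5 B cell markers was expressed in every library. Of 10 mural (pericyte and smooth muscle) markers 4 were, led by Cspg4 at 28.5, 71.7, 62.6 and 81.3. Of 10 Langerhans and dendritic cell markers 5 were, Epcam and Mfge8 among them. Lum, Cpa3, Mcpt4, Rgs5 and Flt3 were at 0 in all 4, though Rgs5 is of the mural list and Flt3 of the dendritic list. The endothelial gene Pecam1 was at 0.214, 0.357, 0.351 and 0.219. Pigment cell genes were also an exception, with 4 of 8 expressed. Dct, for an enzyme of pigment synthesis, was at 21.4, 5.53, 115 and 76.3. Pmel, for a melanosome protein, was at 14.6, 3.81, 54.5 and 39.5. Both were lowest in control 2, and the list's summed level ran from 14.1 nRPKM in control 2 to 247 in control 3. The antigen presentation gene H2-Ab1 was at 35.2, 7.11, 27.95 and 6.92. Cd74, the invariant chain gene, was at 20.96, 2.36, 30.2 and 1.33, and both were higher in controls 1 and 3. The part of such cells in the values above was not tested.

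**Figure D5:**
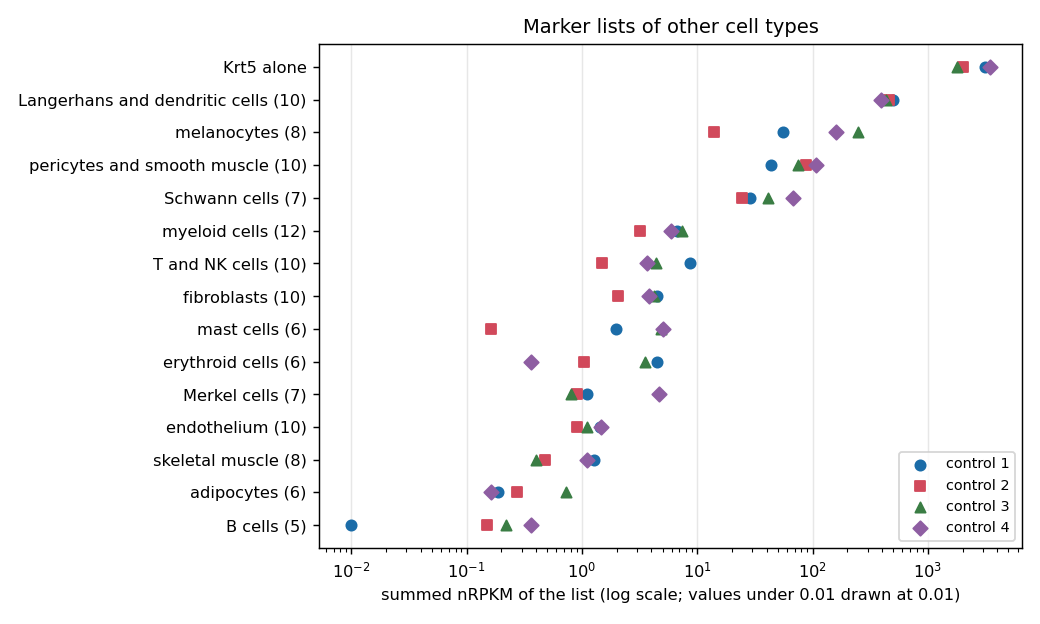
Summed nRPKM of each marker list of other cell types in the 4 control libraries, with Krt5 alone for scale: the horizontal axis is logarithmic, symbols are libraries, and the number of genes in a list stands in brackets. Lists for dendritic and mural cells hold epithelial genes such as Epcam and Cspg4, and the melanocyte list runs from 14.1 to 247 nRPKM.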

How the data were processed

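PolyA RNA of 4 control libraries was analysed, and the 11 treated libraries were not used. Per the labels' protocols, sorted cells were lysed and total RNA was purified on columns and checked for integrity. The deposited counts are uniquely aligned reads per gene, per the file headers. The deposited nRPKM values (RPKM with a size factor per library) divide them by gene length, and the 2 columns differed by 1 gene factor and 1 library factor throughout (relative deviation at most 7.3e-14). GSNAP and GRCm38 are named as aligner and genome per the submitters' processing notes. For versions, annotation and strand handling, nothing is given in the sources used here, and overlapping or antisense genes may share reads.

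Of 36528 listed genes, 31049 matched a RefSeq gene table by Entrez identifier, and 5479, with 1.32 to 1.50% of counts, had no match. Control libraries were numbered in accession order. Every pair of libraries differed by more than sampling noise, with a chi-square of at least 83.3 per degree of freedom. Levels between genes are deposited nRPKM and shares are of deposited counts. Spread is the SD of log2(nRPKM + 1), with a pseudocount of 1, over 4 libraries, and edgeR 4.0.16 in R 4.3.3 gave a common biological coefficient of variation (TMM factors, filterByExpr, intercept only), tested on simulated data. No test was made: for a pair of genes, 4 libraries could not give an exact two-sided p below 0.125. Tables were made in Python 3.11.15. Shared windows were counted over GENCODE M21 transcripts.

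The libraries, gene lists and rule were chosen with earlier results of these data known. The rule named the 6 markers and 6 Hedgehog or p53 genes and, in each class, the 10 highest means. It added the 4 largest and 3 smallest spreads among members with a mean of at least 10 nRPKM and the leading member of each role. It also named the leading genes of all, of each other-cell list and of each identity list, of which 160 genes were carried through, and a few others are not reported here. Genes outside it are named as members of the lists. Alternatives were other scalings, thresholds, pseudocounts, filters, thinning to the lowest total, and leaving out each library.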

Additional observations from a re-analysis of the deposited data

Results flagged for a closer look

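In each group of 4 values, a library was singled out when its gap to the nearest of the others, divided by the whole range, passed Dixon's limit for 4 values. Of 194 values examined 40 did, while chance flags about 1 in 20 groups. Some of the genes were named for their large spread between libraries, so the count is a description and cannot be read against that rate. Control 4 was the highest in 19 and the lowest in 1, control 1 the highest in 17, control 3 in 2 and control 2 in 1, and no cause was tested.

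Control 1 stood high for keratins and differentiation genes. Krt79 was at 2580 nRPKM there against 525 in the next library, Krt10 at 157.9 against 62.0, Krt6a at 228.1 against 11.7 and Krt1 at 51.5 against 6.63. The keratin share of counts was 4.21% against 2.34%, and that of the suprabasal and cornified layer list 0.2999% against 0.0693%. Krtdap was at 1927 nRPKM against 174, Calm4, a calmodulin-like gene of differentiating keratinocytes, at 602.2 against 29, and the defensin gene Defb6 at 1024 against 79.8. Ly6a was at 78.6 against 3.12, Igfl3 at 66.6 against 2.08, Chit1 at 51.9 against 2.23 and Stfa3 at 40.8 against 0.322. The protease gene Ctsd was at 382.7 against 137, the Wnt readout Apcdd1 at 42.4 against 12.2 and the factor Sox7 at 38.9 against 4.49. The lymphocyte marker Cd5 was at 8.1 against 1.36.

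Control 4 held the highest total, 95464249 counts against 35568258. Among transcription factors, Gli1 was at 420.8 nRPKM there against 111.9 in the next library, Gli2 at 57.4 against 17.4, Irx1 at 71.8 against 8.93, Barx2 at 63.9 against 7.76 and Hoxc13 at 53.4 against 20.2. The hairless gene Hr, a nuclear corepressor of the hair cycle, was at 637.1 against 194.9. Among receptors, Notch1 was at 55.8 against 12.4, Lrp5 at 47.6 against 3.81, Acvr1b at 64.2 against 7.55, Rgma at 101.6 against 13.7 and Cntfr at 213.8 against 43.4. Among matrix genes, Spock2 was at 74.5 against 2.94, Hspg2 at 66.8 against 10.9, Igfbp6 at 57.7 against 9.32 and Bgn at 147.9 against 50.1. The DNA replication list took 0.0493% of its counts, the lowest, against 0.150%. Some markers of other cells were low but highest there, with Thy1 at 2.66 against 0.565, Piezo2 at 1.99 against 0.341, and the Merkel cell list at 0.00292% of counts against 0.000617%.

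In control 2 the inner root sheath keratin Krt71 was at 5.87 against 2.60. In control 3 the adipocyte gene Plin1 was at 0.152 against 0, and the adipocyte list took 0.000103% of counts against 3.2e-05%.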

How the results depend on the processing

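Of 145 values of classes or of the whole transcriptome under an alternative, 131 stayed close to the value reported. Close means within 1.5 times of it or, for library shares, within 1 SD of it. All 960 means of named genes stayed within their own SD. Leaving out 1 of 4 libraries cannot move a library share or a gene mean by more than that SD. Such values, also those among the 131, were therefore bound to stay. At a threshold of 5 nRPKM in every library, 7493 genes were expressed, with 9 keratins, 173 transcription factors and 117 receptors. As shares of summed nRPKM in place of counts, keratins took 4.07%, transcription factors 2.27%, receptors 1.62% and matrix genes 1.85%. Leaving out each library in turn, the median SD of log2(nRPKM + 1) ran from 0.23 to 0.39 over all expressed genes, from 0.24 to 0.49 for transcription factors and from 0.29 to 0.51 for receptors, the lowest being without control 4 each time. With no filter on low values the median SD was 0.34 for keratins and 0.29 for receptors, and the biological coefficient of variation was 0.754, since rarely counted genes enter. Scaling over library totals moved control 4 by -0.15 on the log2 scale and left 50 transcription factors, 33 receptors and 16 matrix genes at least 2-fold above in it. TMM scaling moved no library by more than 0.011. No paired analysis was possible because a single group was used. The 4 libraries, with totals of at least 29108107, limit the precision more than their depth does for genes above 10 nRPKM. Means that moved by over 1.5 times without control 1 include Defb6 (282.2 to 35.0), Calm4 (161.3 to 14.4), Ly6a (20.6 to 1.27) and Sostdc1 (225.7 to 107.5). Without control 4 they include Cntfr (77.8 to 32.5), Rgma (34.8 to 12.6), Lrp5 (14.3 to 3.21), Ptch1 (83.1 to 51.4) and Gli2 (25.5 to 14.9). Without control 2 Hhip went from 58.4 to 37.2, and without control 3 Dct from 54.6 to 34.4.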

Other observations

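Genes of cytosolic ribosomal proteins were mostly highest in control 4. Of 87 such genes 80 were expressed, and control 4 stood at least 2-fold above each other library in 56 of the 83 with a mean of at least 1 nRPKM, against 9.89% of all such genes. Rpl8, a large subunit protein, was at 348, 209, 295 and 903 nRPKM in controls 1 to 4. The list took 0.322, 0.206, 0.281 and 0.794% of counts, and 33.99% of the 50-base windows of its genes at the median occur in transcripts of other genes. Windows were compared between transcripts, on either strand, so they can include stretches where genes overlap. Only a window with a copy elsewhere in the genome gives no count with unique alignment. The part of such copies was not tested, so these levels are uncertain.

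Mitochondrially encoded genes were split. CYTB, for cytochrome b, was at 2562, 2100.2, 6238 and 3757. ND1, a complex I subunit gene, was at 2037, 1786, 4127 and 2746. The cytochrome oxidase subunit gene COX2 was far lower, at 0.102, 0.182, 0.233 and 5.06. COX3, another, was at 0.148, 0.1904, 0.135 and 1.88. COX2 and COX3 share 100 and 99.9% of their windows with transcripts of other genes, against 51.1% for COX1, at 635, 574, 1652 and 1997. ATP6, ND3 and ND4L share 99.5, 98.0 and 98.8% and had means of 1.09, 0.109 and 0.111 nRPKM. The level did not follow the share in every gene. ATP8 shares 0% and had a mean of 1.04, and ND4 shares 62.2% and had a mean of 544.

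Immediate early and stress genes, which cell isolation can induce, were expressed in 17 of 19 cases. Fos was at 96.9, 23.9, 17.2 and 10.8. The phosphatase gene Dusp1 was at 87.6, 10.5, 16.3 and 9.39, and both were highest in control 1. Jun was more even, at 51.8, 67.5, 47.2 and 61.00. Of 17 interferon response genes 5 were expressed, where 31.6% of all listed genes were, so this count does not mark the list as low. The chemokine gene Cxcl10 was at 18.4, 4.16, 8.35 and 3.08. In this list 4 of the 9 with a mean of at least 1 nRPKM stood at least 2-fold above in control 1, against 2.22% of all genes.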
